A study of Mus musculus with 12 samples.

Results

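The histone gene cluster of mouse chromosome 13 was examined in 8 lists of H3K79 methylation peaks. Its members are all peaks that overlap either of 2 windows of chromosome 13 in the mm9 build, from 21.8 to 22.14 Mb (proximal, 340 kb) and from 23.57 to 23.87 Mb (distal, 300 kb). These windows were chosen by position and are taken to hold the Hist1 replication-dependent histone genes. Of 933917 peaks in the 8 lists, 166 lay there, and 0 of them was cut by a window edge.

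The series measured histone H3 with 1 (H3K79me1) or 2 (H3K79me2) methyl groups on lysine 79, by ChIP-seq on day 4 of reprogramming. The cells were mouse embryonic fibroblasts of a conditional AF10 line that carried OSKM (the reprogramming factors OCT4, SOX2, KLF4 and MYC) and rtTA, and all received doxycycline at 2 µg/mL. Control libraries (AF10 fl/fl) had an empty adenovirus and Cre libraries (AF10 -/-) an adenovirus with Cre recombinase, which deletes the floxed alleles. Each mark had 2 control and 2 Cre libraries, and chromatin of the feeder fibroblasts on which the cells grew may be present in each. AF10, also called Mllt10, is a cofactor of DOT1L, the enzyme that methylates this residue, and the series was set up around its role in keeping cell identity.

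Replication-dependent histone genes encode the bulk of the H1, H2A, H2B, H3 and H4 proteins that package newly made DNA. They are transcribed mainly while DNA is replicated, have no introns, and end their mRNAs in a stem-loop in place of a poly(A) tail. H3K79 methylation is best known as a mark of transcribed gene bodies, where it usually extends from the region after the start site into the gene.

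In RefSeq's GRCm38.p6 gene order, the proximal run of histone genes (H2bc13 to H2bc11) held 24 genes and pseudogenes, of which 1 was of class H1, 8 of H2A, 8 of H2B, 2 of H3 and 5 of H4. The distal run (H4c8 to H1f1) held 30, with 5, 6, 6, 7 and 6 in the same classes. The 52 protein-coding members had a median length of 491 bp, and 47 were under 1000 bp. The windows are not made of histone genes alone. The proximal run also held 31 tRNA genes and 9 others, among them Zfp184, a zinc finger gene, and Prss16, a protease gene, and the distal run held 4 others, among them Hfe, which acts in iron uptake. Between the runs lay 147 genes, 75 of them vomeronasal receptor (Vmn1r) genes or pseudogenes, 46 of them tRNA genes and 0 of them histone genes. The table is of another build than the peaks, so no peak is assigned to a gene here. Histone genes of a class are close copies of one another, and how reads that match several copies were treated is not given in the sources used here, so calls over their coding sequence are uncertain.

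Promoters of the histone genes in that gene order were searched for 3 motifs. They were picked by gene name, so the motifs do not show what the mm9 windows hold. Of the 54 histone genes and pseudogenes, 50 had an entry in the RefSeq promoter table (GRCm38.p6). In the 250 bases before the start, CCAAT or its reverse complement ATTGG occurred in 84% of these 50, against 33.8% of all 32851 promoters. TATAAA or TTTATA occurred in 48%, against 12.4%. The octamer ATTTGCAT or ATGCAAAT occurred in 18%, against 1.60%, in 4 of 12 H2A and 5 of 14 H2B promoters and in 0 of 24 of the other classes. CCAAT was found in all 39 promoters of classes H1, H2A, H2B and H3 and in 3 of 11 of class H4. Matches of different motifs overlapped in 0 of the 50 promoters. A match is only a run of letters, and many H2A and H2B genes stand back to back and share their promoter. The last 100 bases before the start are given for the first gene of each class in the chromosome's order, 5′ to 3′ on the gene's own strand, with matches of the 3 motifs in capitals. Of these, H4c11 shows none.
H1f5: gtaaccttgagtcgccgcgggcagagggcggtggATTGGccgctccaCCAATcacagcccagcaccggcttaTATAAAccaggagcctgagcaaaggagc
H2ac13: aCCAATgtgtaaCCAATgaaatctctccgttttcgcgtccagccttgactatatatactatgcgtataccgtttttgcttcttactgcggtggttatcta
H2bc13: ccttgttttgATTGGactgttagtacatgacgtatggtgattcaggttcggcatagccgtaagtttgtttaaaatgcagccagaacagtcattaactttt
H3c10: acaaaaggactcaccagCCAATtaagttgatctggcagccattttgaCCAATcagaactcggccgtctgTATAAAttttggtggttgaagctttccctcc
H4c11: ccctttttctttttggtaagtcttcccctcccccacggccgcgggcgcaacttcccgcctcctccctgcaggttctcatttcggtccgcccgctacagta

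The lists differed as a whole before any region is considered. They held from 12155 to 194520 peaks and covered from 0.0704% to 4.46% of the 2641 Mb spanned by peaks, with H3K79me1 Cre replicate 2 the smallest in both. The lists give no read counts, so the depth of the libraries is unknown and no counting interval is given. Chromosome X has 0 peaks in the list of H3K79me1 control replicate 1, which lowers its value for the genome but not for chromosome 13. No label says that replicates came from separate cultures, so p-values measure the spread between these libraries, which may be technical. Every peak p and fold value below is the authors' own.

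Both marks were called over little of the histone windows. The H3K79me1 control lists placed 59 (replicate 1) and 19 (replicate 2) peaks there, and the Cre lists 21 and 0. Of the 640 kb these covered 3.91% and 0.605% in control cells, then 0.935% and 0% in Cre cells. The H3K79me2 control lists placed 8 and 33 and the Cre lists 8 and 18, in the same order. Control cover of that mark was 0.108% and 1.15%, and Cre cover 0.260% and 0.515%. H3K79me1 control replicate 1 alone held 59 of the 166 peaks, and it was the 1 list with more peaks than its own density over the genome would place there, 38.8. The other lists held fewer than that density would place, by a factor of 0.736 in H3K79me1 Cre replicate 1 down to 0.358 in H3K79me2 control replicate 1. The empty list, H3K79me1 Cre replicate 2, would hold 2.95 peaks at its density.

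The windows were covered less than the genome as a whole in 8 of 8 lists. The genome values were 4.46% and 2.03% in the H3K79me1 controls, 2.28% and 0.0704% in H3K79me1 Cre, 0.606% and 2.71% in the H3K79me2 controls and 1.82% and 1.90% in H3K79me2 Cre. Divided by the genome value of its own list, cover of the windows was 0.877 and 0.299 in the H3K79me1 controls, 0.411 and 0 in H3K79me1 Cre, 0.179 and 0.425 in the H3K79me2 controls and 0.143 and 0.272 in H3K79me2 Cre. H3K79me1 control replicate 1 thus lay close to its genome value and all others at less than 0.43 of theirs. The mean difference was -1.05 ± 0.581 percentage points (SD, n = 8 lists), and an exact two-sided sign-flip permutation test gave p = 0.00781, the smallest it can give. With the rest of chromosome 13 in place of the genome the mean difference was -0.717 percentage points (exact sign-flip permutation p = 0.00781). It was -0.616 with equal numbers of peaks per mark, -0.201 with −log10 p of at least 2 and -1.66 with peaks within 1 kb joined (exact sign-flip permutation p = 0.00781 in each). At −log10 p of at least 2, H3K79me1 control replicate 2, both H3K79me1 Cre lists and H3K79me2 Cre replicate 1 had 0 members. An empty list can only lie below its genome value, as H3K79me1 Cre replicate 2 did with all its peaks. The sign-flip test asks whether the lists differ in 1 direction, not whether other regions would do the same, and the marks may share chromatin.

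**Figure D1:**
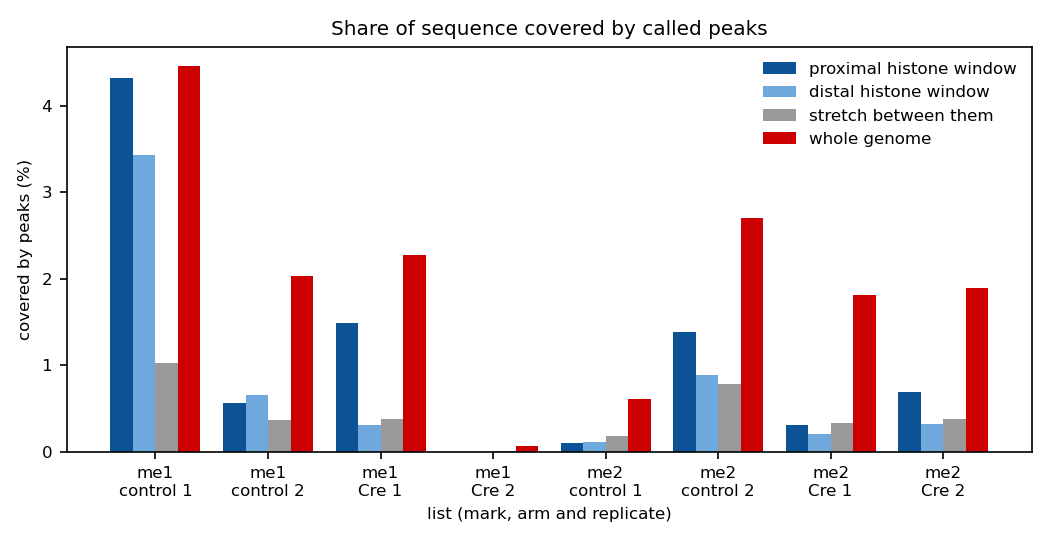
Share of sequence covered by peaks (%, y axis) in each of the 8 lists (x axis; me1 and me2 stand for H3K79me1 and H3K79me2), with a bar each for the proximal window, the distal window, the stretch between them and the genome. The genome bar is the tallest in every list, and H3K79me1 Cre replicate 2 has no peak in either window.

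A genome average is carried by densely covered regions, and among regions of their size the windows lay near or above the median in most lists. These tiles were taken consecutively and were not matched for gene content. The proximal window exceeded the median of 7779 consecutive tiles of 340 kb in 6 of 8 lists. In H3K79me1 control replicates 1 and 2 and Cre replicate 1, 68.4%, 58.9% and 68.1% of tiles had less cover than the window. In H3K79me2 the control shares were 37.2% and 62.2% and the Cre shares 59.6% and 60.5%. Among 8815 tiles of 300 kb the distal window lay above 66.9%, 61.5% and 55.1% in those 3 H3K79me1 lists, and above 41.1% and 55.3% in the H3K79me2 controls and 59.7% and 43.8% in H3K79me2 Cre. The distal window was below the median tile in H3K79me2 control replicate 1 (0.113% against 0.142%) and Cre replicate 2 (0.317% against 0.384%). In H3K79me1 Cre replicate 2 each window and its median tile were both at 0%.

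The stretch of 1.43 Mb between the windows, where the vomeronasal receptor genes lie, was covered to 1.02% and 0.365% in the H3K79me1 controls, 0.373% and 0.00357% in H3K79me1 Cre, 0.182% and 0.783% in the H3K79me2 controls and 0.329% and 0.374% in H3K79me2 Cre. The histone windows were above it in 5 lists and below it in 3. The mean difference of 0.506 percentage points (SD 0.987, n = 8) did not pass the exact sign-flip permutation test (p = 0.0781). Without H3K79me1 control replicate 1 it was 0.166 percentage points, and with equal numbers of peaks per mark, taken by the authors' p, it became -0.0409 (exact permutation p = 0.0391). That setting kept only the 12155 strongest peaks of each H3K79me1 list, where control replicate 1 had 160119. Its sign thus concerns the strongest calls alone. The proximal window had a mean cover 0.368 percentage points above the distal one (SD 0.464, n = 8), with an exact sign-flip permutation p of 0.0625. It was higher in H3K79me1 control replicate 1, at 4.33% against 3.44%, and in H3K79me1 Cre replicate 1, at 1.49% against 0.308%. H3K79me1 control replicate 2 had the reverse order, at 0.564% against 0.652%, as did H3K79me2 control replicate 1, at 0.104% against 0.113%.

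Peaks in the histone windows were narrow. In H3K79me1 the median width was 408 bp (control replicate 1), 180 bp (control replicate 2) and 251 bp (Cre replicate 1), against 477, 255 and 336 bp over all peaks of those lists. In H3K79me2 the control medians were 55.5 and 182 bp and the Cre medians 162 and 170.5 bp, against 89, 194, 350 and 229 bp. The windows' median was the smaller in 7 of 7 lists that had a peak there, with a mean log2 ratio of -0.49 (SD 0.33, n = 7) and an exact two-sided sign-flip permutation p of 0.0156, the smallest that 7 lists allow. The shortest possible peak differs between lists, so widths are compared only within a list. When peaks with −log10 p under 2 were dropped, 4 lists had a member and the ratio was -0.74 (exact permutation p = 0.125, the smallest that 4 lists allow).

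Of the 166 peaks, 18 were at least 500 bp wide and 1 at least 1000 bp. Peaks of 1000 bp or more made up 1.32% to 19.7% of all peaks in the 7 lists that had a member. In H3K79me1 control replicate 1, which held 16 of those 18, peaks of 500 bp or more made up 27.1% of the windows' peaks and 47.6% of all peaks. The shares were 4.76% and 30.9% in H3K79me1 Cre replicate 1, and 3.03% and 16.4% in H3K79me2 control replicate 2. The other 4 lists had 0 such peaks, where their own shares were 18.8% (H3K79me1 control replicate 2), 6.19% (H3K79me2 control replicate 1), 34.9% and 19.9% (H3K79me2 Cre replicates 1 and 2). With 8 peaks in H3K79me2 control replicate 1, a share of 6.19% would itself give fewer than 1. The widest member of all lay in the distal window at chr13:23629171-23630193 in H3K79me1 control replicate 1, at 1023 bp. The widest in the other lists were 433 bp in H3K79me1 control replicate 2 (chr13:23831999-23832431), 616 bp in H3K79me1 Cre replicate 1 (chr13:21871824-21872439), 191 and 500 bp in the H3K79me2 controls (chr13:21870437-21870627 and chr13:22044629-22045128), and 394 and 285 bp in H3K79me2 Cre (chr13:21841335-21841728 and chr13:21899933-21900217). Joining peaks within 1 kb gave a longest domain of 4789 bp, in H3K79me1 control replicate 1. In H3K79me2 Cre replicate 1 the longest was 1370 bp, while 9.19% of all joined domains of that list were at least 5 kb long. That list had 7 joined domains in the windows, for which such a share would itself give fewer than 1.

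**Figure D2:**
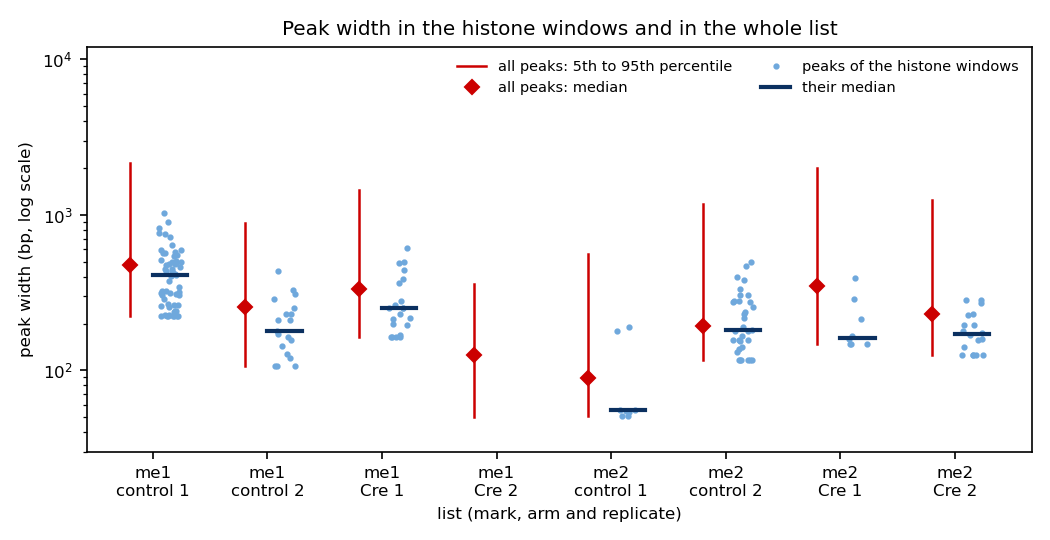
Width of each peak in the histone windows (points, bp, log scale) in each list (x axis; me1 and me2 stand for H3K79me1 and H3K79me2), with the median as a bar, beside the median (diamond) and the 5th to 95th percentile (line) of all peaks of that list. The windows' median is below the list's median in 7 of 7 lists with a peak there, and 1 peak exceeds 1000 bp.

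Peaks were spread over many 10 kb windows, each of which they filled little. Of the 64 windows of 10 kb that make up the region, 26 and 12 held a peak in the H3K79me1 controls, 14 and 0 in H3K79me1 Cre, 8 and 24 in the H3K79me2 controls and 8 and 16 in H3K79me2 Cre. As a share these were 40.6% against 19.9% of all 10 kb windows of the genome in H3K79me1 control replicate 1, 37.5% against 35.7% in H3K79me2 control replicate 2, and more than the genome's share in 6 of 8 lists. The exceptions were H3K79me1 Cre replicate 2 and H3K79me2 control replicate 1. A 10 kb window that held a peak was covered to 9.62% on average in H3K79me1 control replicate 1, where the genome's such windows were covered to 22.4%. In H3K79me2 Cre replicate 2 the values were 2.06% and 8.73%. The cover per occupied window was below the genome's in 7 of 7 lists, with 1 to 2.27 peaks per occupied window against 1.88 to 3.99 in the genome for the same lists. These counts of occupied windows were chosen after the data were seen and are given without a test.

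**Figure D3:**
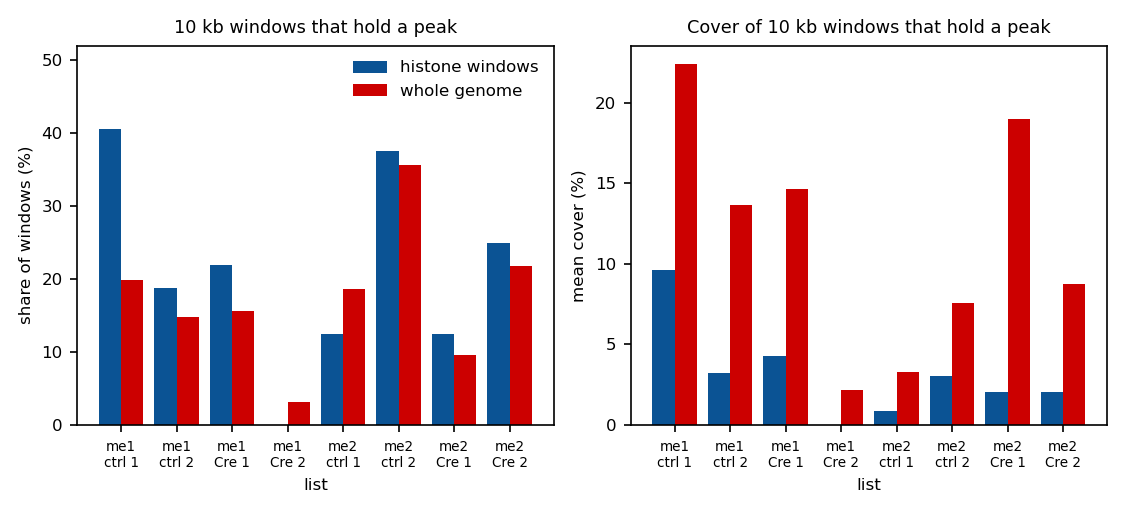
Left, share of 10 kb windows (%) that hold a peak, and right, mean cover (%) of those windows, in the histone windows and in the whole genome, for each list (x axis; me1 and me2 stand for H3K79me1 and H3K79me2). Occupied windows are as frequent as in the genome or more so in 6 of 8 lists, while their cover is lower in all 7 lists that have one.

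The peaks were not spread evenly. In the proximal window no list had a peak between 21928906 and 22012813, a gap of 83.9 kb. In the distal window a gap of 49.4 kb from 23724379 to 23773776 was empty in every list. Of the 64 windows of 10 kb, 27 (42.2%) were empty in all 8 lists, against 48.4% of the genome's. The 10 kb window with the highest mean cover over the lists began at 21870001 and held a peak in 7 lists. Its cover was 22.6% and 2.12% in the H3K79me1 controls, 6.16% and 0% in H3K79me1 Cre, 1.91% and 1.66% in the H3K79me2 controls and 5.03% and 3.48% in H3K79me2 Cre. The next began at 21840001 (mean 4.71%, 7 lists), 23620001 (4.47%, 4 lists), 21920001 (4.04%, 3 lists) and 23830001 (3.63%, 6 lists). In each of these 5 the H3K79me1 control replicate 1 value was the highest, from 13.5% to 26.0%.

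**Figure D4:**
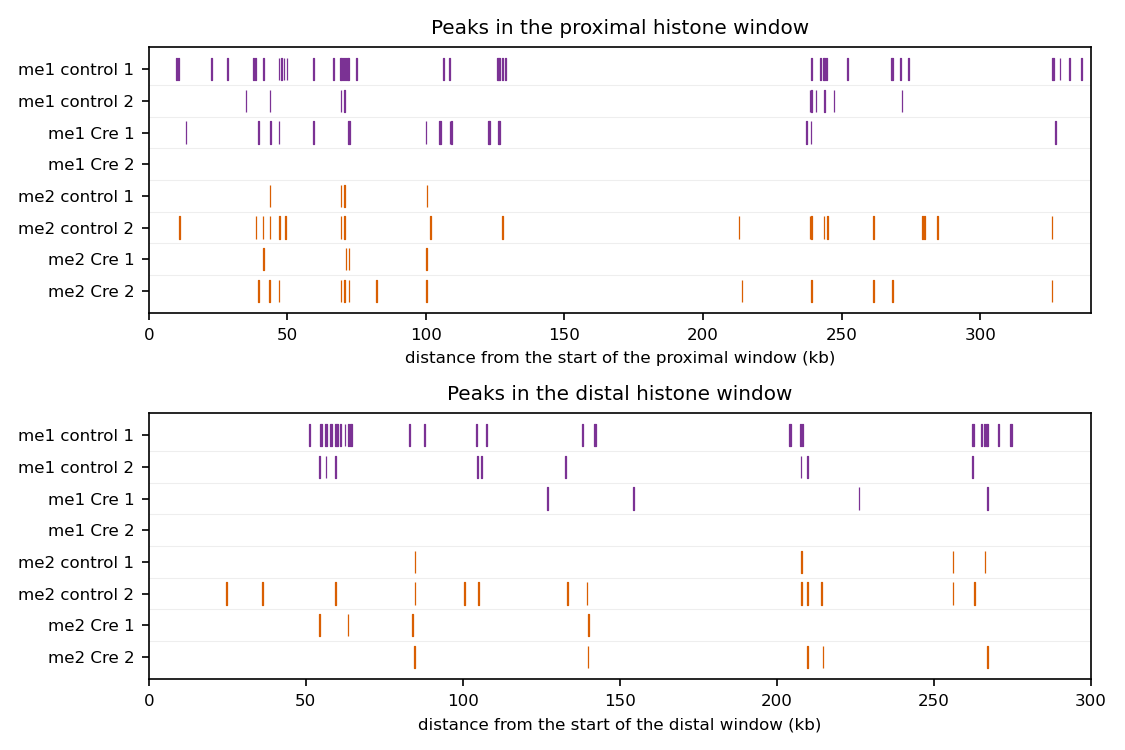
Position of each peak in the 8 lists (rows; me1 and me2 stand for H3K79me1 and H3K79me2) along the proximal (top) and distal (bottom) histone window, as distance in kb from the window's start; the outline makes the narrowest peaks visible. Joined within 1 kb the peaks of all lists form 66 islands, the widest of 4789 bp, with a gap of 83.9 kb in the proximal window and 49.4 kb in the distal one.

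Positions recurred between lists less in the windows than over the genome. Peaks of any list covered 37.7 kb of the windows, of which 7.30 kb (19.4%) was called in at least 2 lists, 2.20 kb (5.84%) in at least 3 and 593 bp (1.57%) in at least 4. Over the genome, 51.3%, 32.3% and 20.9% of the called bases were in at least 2, 3 and 4 lists. No base of the windows was called in 6 or more, as 5.24% were over the genome. No test was run on these shares, and H3K79me1 control replicate 1 gave 25.0 kb of the windows' length. Joined within 1 kb, the peaks of all lists formed 66 islands with a median length of 463.5 bp. Of these, 36 were found in 1 list, 20 in 2 or 3 and 10 in 4 or more. Both marks were found in 22 islands, H3K79me1 alone in 31 and H3K79me2 alone in 13. Islands were not counted over the genome, so these counts cannot tell whether the windows differ from it. H3K79me1 control replicate 1 alone gave 59 of the 166 peaks.

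All 5 of the most shared stretches were in the proximal window, since the distal window had no base called in 4 lists. The first, at chr13:21869250-21869363, was covered to 100% in both H3K79me1 controls, 44.7% and 100% in the H3K79me2 controls and 100% in H3K79me2 Cre replicate 2, and to 0% in the other 3 lists. The stretch chr13:21846902-21847027 was covered to 100% in H3K79me1 control replicate 1 and Cre replicate 1 and in H3K79me2 control replicate 2 and Cre replicate 2. The stretch chr13:21870493-21870616 was covered to 100% in H3K79me1 control replicate 2, both H3K79me2 controls and H3K79me2 Cre replicate 2. The stretch chr13:21872124-21872243 was covered to 100% in H3K79me1 control replicate 1 and Cre replicate 1 and in both H3K79me2 Cre libraries, and in neither H3K79me2 control. The stretch chr13:21843759-21843822 was covered to 100% in H3K79me1 control replicate 2, 93.8% in H3K79me1 Cre replicate 1, 87.5% and 100% in the H3K79me2 controls and 100% in H3K79me2 Cre replicate 2. Of the 5, 3 lay within the island at chr13:21868933-21872439, which spanned 3507 bp and was the only island with peaks of 7 lists. H3K79me1 Cre replicate 2 touched none of the 5.

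By −log10 p, the windows' median call was no stronger than the list's in 6 of the 7 lists with a peak. Median −log10 p was 1.06 and 1.63 in the H3K79me1 controls and 1.26 in H3K79me1 Cre replicate 1, against 1.19, 1.63 and 1.29 for all peaks of those lists. H3K79me2 control lists had 2.80 and 1.56 and Cre lists 1.27 and 1.495, against 2.23, 1.56, 1.37 and 1.495. H3K79me2 control replicate 1 was the 1 list in which the windows' median −log10 p was the higher. It held the strongest member, at chr13:23654664-23654718, with a −log10 p of 5.79, above 95.8% of that list, over 55 bp. H3K79me2 peaks in control replicate 2 (chr13:23654603-23654739) and Cre replicate 2 (chr13:23654593-23654788) overlapped it. A −log10 p of at least 2 was reached by 13 of the 166 peaks. Of these, 8 were all the peaks of that list, in which 82.8% of all peaks reach it. The other 6 lists with a member gave 5, and 0.744% to 8.07% of their own peaks reach it. Median fold enrichment went either way. In H3K79me1 it was 1.68 and 1.99 (controls) and 1.66 (Cre replicate 1), against 1.75, 1.89 and 1.74 for all peaks. In H3K79me2 it was 2.81 and 1.86 (controls) and 1.78 and 1.86 (Cre), against 2.36, 1.83, 1.83 and 1.81.

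Cre and control libraries overlapped in their cover of the histone windows for both marks. Control libraries had an H3K79me1 cover of 2.26 ± 2.34% and Cre libraries one of 0.467 ± 0.661% (SD, n = 2 each), a difference of -1.79 percentage points with an exact two-sided permutation p of 0.667. Cre replicate 1, at 0.935%, lay between the controls, and Cre replicate 2 lay below both. The difference rested on control replicate 1, since without that library it was -0.138 percentage points, and without control replicate 2 it was -3.44. With equal numbers of peaks per mark it was -0.00492, with peaks of −log10 p of at least 2 alone -0.0247 and with peaks within 1 kb joined -2.69. The value at −log10 p of at least 2 rests on 1 peak, in control replicate 1, as the other H3K79me1 lists had 0. Equal numbers kept the 12155 strongest peaks of each H3K79me1 list, where control replicate 1 had 160119. Neither setting can tell whether the difference shrinks once lists are matched. Between lists of the same replicate number the difference was -2.98 (replicate 1) and -0.605 (replicate 2) percentage points. For H3K79me2 the control libraries averaged 0.630 ± 0.737% and the Cre libraries 0.387 ± 0.181% (SD, n = 2 each), a difference of -0.242 percentage points (exact two-sided permutation p = 1). Both Cre values lay between the controls. Without control replicate 2 the sign turned, to 0.279 percentage points, without control replicate 1 it was -0.764, without Cre replicate 1 -0.115, and without Cre replicate 2 -0.370. With equal numbers of peaks per mark it was -0.102 and with −log10 p of at least 2 -0.0755. At that cutoff the H3K79me2 controls had 8 and 3 peaks in the windows and the Cre lists 0 and 1. Between lists of the same replicate number the H3K79me2 difference was 0.151 (replicate 1) and -0.636 (replicate 2). The deposited peak names carry a code that the control and Cre list of a mark and replicate number share, and what it stands for is not given in the sources used here. With 2 libraries against 2, no p below 0.333 is possible. The Cre difference of H3K79me1 was lower than that of H3K79me2 by a value of -1.55 percentage points (exact two-sided permutation p = 0.611 over 36 arrangements, smallest possible 0.0556).

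Taking cover relative to the genome of the same list did not separate the groups. The H3K79me1 ratio averaged 0.588 ± 0.409 over control libraries and 0.205 ± 0.290 over Cre libraries (SD, n = 2 each), a difference of -0.382 (exact two-sided permutation p = 0.667). Without control replicate 1 it was -0.0934, without control replicate 2 -0.672, without Cre replicate 1 -0.588 and without Cre replicate 2 -0.177. The H3K79me2 ratio averaged 0.302 ± 0.174 over control libraries and 0.207 ± 0.0911 over Cre libraries (SD, n = 2 each), a log2 difference of -0.48 (exact two-sided permutation p = 0.667). Without control replicate 2 it was 0.14, without control replicate 1 -1.11, without Cre replicate 1 -0.02 and without Cre replicate 2 -0.95. Over all 8 lists the ratio averaged 0.396 ± 0.364 for H3K79me1 and 0.254 ± 0.126 for H3K79me2 (SD, n = 4 each), a difference of -0.142 with an exact two-sided permutation p of 0.6. Its sign turned without H3K79me1 control replicate 1 (0.0181), and without H3K79me1 Cre replicate 2 it was -0.274. With equal numbers of peaks within each mark it was 0.205 (exact two-sided permutation p = 0.0286, the smallest possible). That setting kept 12155 peaks in each H3K79me1 list and 76497 in each H3K79me2 list, so the marks stayed unequal. With −log10 p of at least 2 the difference was 0.0897 (p = 0.257 in the same exact test). Antibody and peak call go with the mark and cannot be told apart from it.

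None of the 64 windows of 10 kb could be tested at the minimum set for it, a mean cover of 10% over the 4 libraries of a mark. That minimum was passed by 19789 windows of the genome for H3K79me1 and 12081 for H3K79me2. Without a block for the replicate number, limma with Benjamini-Hochberg adjustment called 0% of either, with 106 and 0 at an unadjusted p under 0.05. With that block it called 9856 H3K79me1 and 0 H3K79me2 windows, and whether replicate numbers mark pairs is not stated. With the minimum at 5% and no block, 5 of the 64 entered for H3K79me1 and 0 for H3K79me2. There limma called 0% of the 27086 H3K79me1 windows, these 5 included (63 of the 27086 and 0 of the 5 at an unadjusted p under 0.05). The window from 23620001 to 23630000 had 26.0% and 6.00% in the controls and 0% in both Cre libraries, a difference of -16.0 ± 8.66 percentage points (SE, limma adjusted p = 0.573). The window from 23830001 had 16.4% and 4.33% in control libraries and 3.66% and 0% in Cre libraries, a difference of -8.51 percentage points (limma adjusted p = 0.573). In these 2 of 5 windows both Cre libraries lay below both controls, as they did in 48.3% of all H3K79me1 windows tested at that minimum. In the other 3, from 21870001, 21900001 and 21920001, the groups overlapped.

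Of the bases called in both controls, each Cre list covered a smaller share in the windows than over the genome. The H3K79me1 controls shared 1459 bp in 8 stretches of the windows, of which Cre replicate 1 covered 0.480% and Cre replicate 2 0%, while over the genome it was 49.4% and 2.46%. The H3K79me2 controls shared 545 bp in 6 stretches, of which Cre replicate 1 covered 0% and Cre replicate 2 54.5%, against 74.7% and 78.5% over the genome. Overlap between single lists differed by pair. H3K79me1 control replicate 1 covered 37.7% of the windows' peaks of control replicate 2 by length, against 60.4% over the genome, and Cre replicate 1 covered 3.28% of them, against 36.3%. Of the peaks of control replicate 1, control replicate 2 covered 5.83% and Cre replicate 1 8.68%, against 27.5% and 35.7% over the genome. H3K79me2 control replicate 2 covered 78.6% of the 693 bp of control replicate 1, against 75.6% over the genome. The 33 peaks of H3K79me2 control replicate 2 and the 8 of Cre replicate 1 had 0 bp in common, though 66.4% of the Cre list lay inside that control list over the genome. Between the Cre libraries, 26.4% of H3K79me2 Cre replicate 1 in the windows lay inside Cre replicate 2, against 60.0%. With 8 to 59 peaks per list these shares rest on few positions, and no test was run on them.

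The marks coincided less in the windows than over the genome. In control replicates 1 and 2, 43.6% and 32.0% of the bases under H3K79me2 peaks lay inside peaks of the H3K79me1 controls, against 59.4% and 60.6% over the genome. After Cre it was 24.5% and 32.6% inside peaks of the H3K79me1 Cre lists, against 64.8% and 53.1%. Conversely, H3K79me2 control peaks held 6.47% (control replicate 1) and 38.7% (control replicate 2) of the H3K79me1 bases, against 32.5% and 44.0%, and 20.0% in Cre replicate 1 inside H3K79me2 Cre peaks, against 60.1%. The windows' share was the lower in 7 of the 7 lists with a peak there. The peaks of the other mark also covered less of the windows than of the genome, and whether that has a part in the lower overlap was not tested.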

How the data were processed

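The members and windows were chosen with earlier results of these data known. Builds mm9 and hg19 are listed in the submitters' processing notes, as are MACS2, Bowtie2, bedtools, deepTools, HOMER and SAMtools 1.2, without saying which step used them. Each library has its own list, called in broad mode with an input as background per the deposited peak names, at p settings of 0.001 (H3K79me1) and 1e-04 (H3K79me2), with replicates not pooled. For each peak the deposited lists give a fold enrichment (ratio to background), a −log10 p-value, a −log10 q-value and a score, all by the authors. The median −log10 p of a list ran from 1.19 to 2.23, so many peaks carry weaker p-values than the settings above. The reason is not given in the sources used here. Human 293T chromatin was added as a spike-in per the labels' protocols, and no scaling to it is recorded in the lists. A list shows where signal passed a threshold, not its level.

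Samples were grouped by title. Cover was the percentage of bases inside peaks, clipped at window edges. Genome length was added up over chromosomes, each taken to its last peak end in any list. Cre and control were compared by exact permutation tests over libraries, and the windows with the genome by exact sign-flip tests over lists. Cover of 10 kb windows was tested with limma (mean-variance trend, Benjamini-Hochberg at 0.05). On simulated data of the real spread it recovered 0 of 200 windows shifted by 30 percentage points for either mark. With the spread multiplied by 0.1 it recovered 197 (H3K79me1) and 200 (H3K79me2), so 0 calls does not exclude such shifts.

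Named were the stretches covered by at least 6 lists, lowered to 4 where under 3 existed, up to 5 per window and joined within 1 kb, the 5 most covered 10 kb windows and each list's widest peak. Islands and the strongest peak were named after values were seen. Alternatives were other peak thresholds, numbers and widths, joining, wider windows, other minimum covers and scalings, and libraries left out. Peak sequences were not analysed here, since no mm9 genome was used. The RNA polymerase II samples were not analysed here. Tools were Python 3.11.15, pandas 2.3.3, NumPy 2.4.6, Matplotlib 3.10.9, R 4.3.3 and limma 3.58.1.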

Additional observations from a re-analysis of the deposited data

How the results depend on the processing

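Of 146 alternatives, 131 kept direction and call. In the Cre minus control comparisons of cover the call could not change, since no p below 0.333 was possible in their exact permutation tests. Cover below the genome held in direction and call in its 15 alternatives, from -1.66 to -0.201 percentage points (exact permutation p from 0.00781 to 0.0156). Lists with 0 peaks in the windows, as several were at −log10 p of at least 2, could only lie below it. The narrower peaks held with each library left out (log2 ratio -0.56 to -0.39) but missed the threshold at −log10 p of at least 2 (-0.74, exact permutation p = 0.125), where 4 lists had members. At that cutoff the difference from the stretch between the windows was -0.0400, and the H3K79me2 minus H3K79me1 ratio 0.0897. With equal peak numbers within each mark, but not between the marks, these were -0.0409 and 0.205 (exact permutation p = 0.0286). The H3K79me1 relative Cre difference was then 0.0101, with only the 12155 strongest peaks of each H3K79me1 list kept. The causes were not tested.

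With each library left out, H3K79me2 cover differences ran from -0.764 to 0.279 percentage points, H3K79me2 relative cover from -1.11 to 0.14 (log2), and the ratio between marks from -0.274 to 0.0181. Calls of limma over the genome ran from 0 to 1471 for H3K79me1 (1471 without control replicate 2, all lower after Cre) and from 0 to 7668 for H3K79me2 (7668 without control replicate 2, 7664 of them higher), with the lone control assumed to vary like the Cre libraries. Centring on library medians gave 86 H3K79me1 calls, all higher after Cre, and 2 H3K79me2 calls, both lower, and moved the median H3K79me1 difference from -21.5 to 0.605 percentage points. Quantile normalization gave 26 H3K79me1 calls, all higher, where the unscaled fit of the same libraries gave 0. In these fits 0 calls lay in the histone windows, few or none of which were tested.

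Replicate numbers are shared by the groups, and whether they mark pairs is not stated, though the deposited peak names share a code between the control and Cre list of a number. Deviations of same-numbered libraries correlated at 0.316 (H3K79me1) and -0.240 (H3K79me2) over 10 kb windows. No histone window entered the fits with the replicate number as a block. There limma called 9856 H3K79me1 windows (9822 lower after Cre, 34 higher) and 0 H3K79me2 windows. With crossed numbers, added after seeing the data like the autosomes-only run, it called 0 H3K79me2 windows. A log2 scale could not be used for H3K79me1 or between the marks, since 1 list had 0% cover.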
